A study of Mus musculus with 22 samples.

Results

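The promoters of protein-coding genes were examined as a class in H3K27ac ChIP–seq data from mouse Kupffer cells, which are the macrophages that reside in the liver. A window was taken as a promoter where the deposited annotation placed it on an autosome at the transcription start site (promoter-TSS) of a gene typed protein-coding. This gave 13303 of the 96381 windows counted in the series, at 10182 genes. Each window was 1000 bp wide and was centred on a region of open chromatin, so a gene could have more than 1 window. Of the promoter windows 42% overlapped the window before, so some tags count in more than 1 window. For 702 promoter windows the open region was found only after lipopolysaccharide (LPS) and not in control cells.

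Kupffer cells were sorted by FACS from the livers of male mice of 3 inbred strains (A/J, BALB/cJ, C57BL/6J), with 3 H3K27ac libraries per strain, and from CB6F1/J mice, the first generation of a BALB/cJ mother and a C57BL/6J father, with 3 libraries. The 3 inbred strains contributed 7 input libraries, of which 3 came from A/J, 3 from BALB/cJ and 1 from C57BL/6J. All groups carried the treatment label Control, and all livers were perfused and digested with the transcription inhibitor flavopiridol present. The labels do not say whether the libraries of 1 strain came from separate animals. The p-values below therefore set differences against the spread between these libraries, which may not be that between animals.

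H3K27ac is an acetylated lysine on histone H3 that is deposited by the p300 and CBP acetyltransferases at active promoters and enhancers. Most mammalian promoters lie in CpG islands, which are rich in CpG dinucleotides and serve genes used in nearly every cell. Promoters poor in CpG more often serve genes that are restricted to a cell type or induced by a signal. In macrophages, the pioneer factor PU.1 and signal-dependent factors such as AP-1, NF-κB and the interferon-activated STAT and IRF proteins act at enhancers and at inducible promoters.

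The sequences just before the start site show the range of promoters described below. Each run is the 120 bases before the start site, 5′ to 3′ on the gene's strand, from the RefSeq promoters of build GRCm38.p6. Capitals mark matches on either strand to the GC box GGGCGG, the CCAAT box or the ETS core CCGGAAG. The ranking took called promoters with a mean of at least 100 normalized counts (tag counts scaled to the mean effective library size) in the higher strain. It also required that the compared libraries did not overlap. By this rule *Il21r* (chr7:125603309-125603428, + strand) had the largest excess in A/J over BALB/cJ and *Nub1* (chr5:24685695-24685814, + strand) the largest deficit, while *Trim12a* (chr7:104315496-104315615, - strand) was without tags in A/J and BALB/cJ. The *Nub1* window that differed lies upstream of the bases shown and does not hold them. *Pcbp1* (chr6:86526190-86526309, - strand) and *Ranbp2* (chr10:58446732-58446851, + strand) had the highest mean levels of all promoters.
Il21r: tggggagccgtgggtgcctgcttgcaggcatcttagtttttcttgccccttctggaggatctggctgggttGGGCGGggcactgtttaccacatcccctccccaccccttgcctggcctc
Nub1: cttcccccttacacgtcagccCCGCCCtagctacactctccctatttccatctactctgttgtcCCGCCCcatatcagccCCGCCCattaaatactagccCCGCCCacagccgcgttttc
Trim12a: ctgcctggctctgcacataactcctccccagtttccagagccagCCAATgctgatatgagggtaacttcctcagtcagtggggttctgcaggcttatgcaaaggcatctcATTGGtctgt
Pcbp1: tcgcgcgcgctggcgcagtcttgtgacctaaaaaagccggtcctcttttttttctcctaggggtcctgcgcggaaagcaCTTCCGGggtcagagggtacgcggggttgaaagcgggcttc
Ranbp2: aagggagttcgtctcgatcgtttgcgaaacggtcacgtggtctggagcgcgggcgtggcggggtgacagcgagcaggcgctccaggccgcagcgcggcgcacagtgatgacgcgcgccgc

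These 5 promoters differed in CpG content, given as the observed number of CpG over that expected from the bases in the 300 bases from 250 before to 50 after the start site. The ratio was 0.0563 at *Trim12a* and 0.298 at *Il21r*, against 0.946 at *Nub1*, 1.06 at *Pcbp1* and 1.23 at *Ranbp2*. At *Nub1* these 300 bases lie outside the window that differed. A GC box stood somewhere in those 300 bases in 35.9% of all 32544 RefSeq mouse promoters, a CCAAT box in 37.4% and the ETS core in 8.91%. *Cacna1a*, which by the same rule had the largest excess over C57BL/6J in both other strains, is named only.

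Between 2291425 and 12980348 tags fell in the windows of a strain library, and replicate 2 was the shallowest in each strain. The sorted cells were checked at the promoters of Kupffer cell markers, of which 8 of 12 had a promoter window. Their mean levels ran from 35.4 normalized counts at *Cd163*, a haemoglobin scavenger receptor, to 338 at *Spic*, a transcription factor of iron-handling macrophages. Among 22 hepatocyte genes 3 had a promoter window, with mean levels of 7.22 at *Ass1*, 8.06 at *Apoa2* and 183 at *Trf*. Among monocyte and neutrophil genes 8 of 19 had one, and their summed level was 536 to 647 in A/J, 511 to 607 in BALB/cJ and 617 to 928 in C57BL/6J libraries. *Csf3r*, the receptor for G-CSF, supplied 423 of that sum on average. Dendritic cell genes summed to 839 to 858 in A/J, 694 to 941 in BALB/cJ and 589 to 1034 in C57BL/6J. Highest in the other lists were *Maf* (endothelial, 126), *Bank1* (B cell, 97), *Ecm1* (stellate, 56.6) and *Cd4* (T and NK, 19.9). By edgeR *Ecm1* was lower in A/J than in BALB/cJ (-1.38, adjusted p = 0.00226). *Cd4* was higher in A/J than in C57BL/6J (1.47, adjusted p = 0.0319), a call lost without any 1 of 5 libraries. The part these cell types had in the differences below was not tested.

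Promoters carried high and even levels of H3K27ac. The median promoter had 115 normalized counts, with 41.9 and 224 at the quartiles, against a median of 30.1 over 41192 intronic windows and 16.1 over 32452 intergenic windows. Library medians over promoters were 110, 113 and 113 in A/J, 108, 114 and 115 in BALB/cJ, and 120, 102 and 118 in C57BL/6J, so the strains overlapped. The ratio of H3K27ac to input, each scaled to its tags in windows, was taken at promoters above 16 normalized counts with an input tag. Its median was 1.93 both in A/J (11463 promoters) and in BALB/cJ (11459 promoters). For C57BL/6J it was 2.15 (11371 promoters), and the single input there held a median of 5 tags per promoter. Over all windows the median was 1.29 for C57BL/6J, 1.13 for BALB/cJ and 1.09 for A/J. The ratio thus sets promoters against other windows and does not measure enrichment over the genome. A mean of more than 16 normalized counts was reached by 11467 promoters (86.2%), compared with 58.9% of the other windows. These 11467 promoters, at 8703 genes, were tested between strains, and 1836 were not. Of all promoters, 11012 were above that level in each of the 3 strains and 1571 in none, whereas 73 passed only in A/J, 164 only in BALB/cJ and 96 only in C57BL/6J.

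Promoters held between 26.2% and 28.8% of the tags in windows. The share was 28.5%, 28.8% and 27.3% in A/J (28.2% ± 0.77, SD, n = 3), 27.3%, 27.3% and 27.9% in BALB/cJ (27.5% ± 0.339, SD, n = 3), and 27.4%, 26.2% and 26.9% in C57BL/6J (26.8% ± 0.609, SD, n = 3). The libraries of the strains overlapped, and an exact permutation test over the 1680 assignments of libraries to strains gave p = 0.0679 (two-sided, smallest possible p 0.00357). Permuting within replicate number gave an exact p = 0.167, and without A/J replicate 3 the exact permutation p was 0.0143. In the inputs the same windows held 11.9% to 14.5% of tags.

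**Figure D1:**
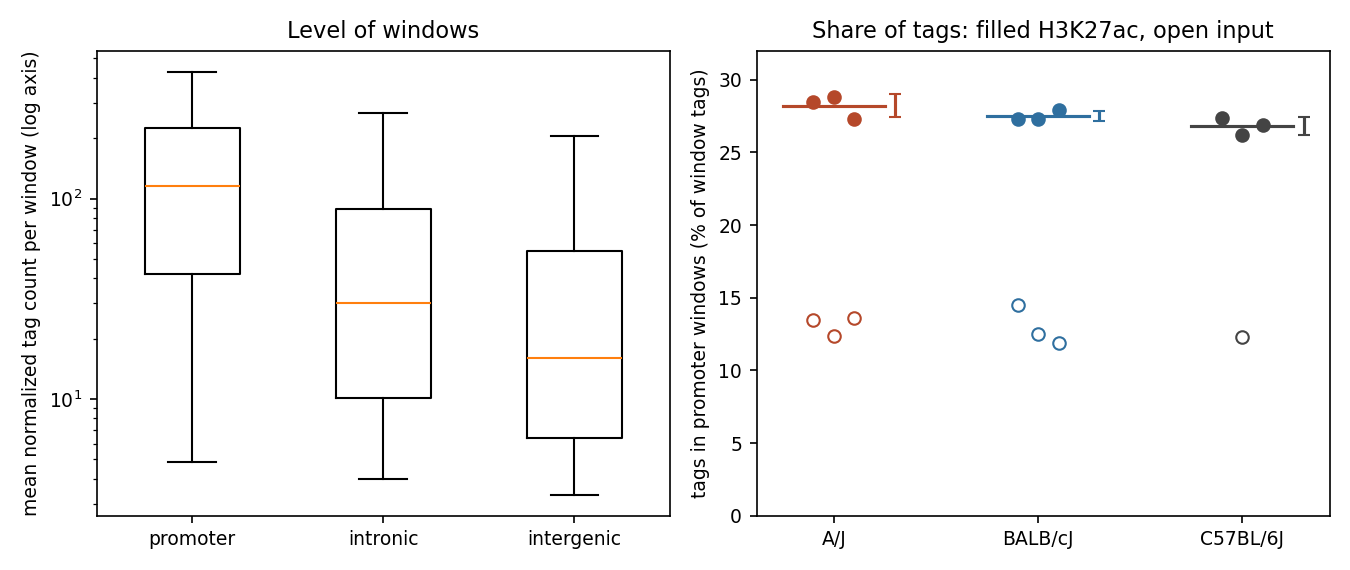
Left, mean normalized tag count per window (log axis) for promoter, intronic and intergenic windows; boxes span the quartiles with the median as a line, and whiskers reach the 5th and 95th percentiles, with promoter windows highest at a median of 115. Right, the share of window tags in promoters (%) for each H3K27ac library (filled) and input library (open), with the mean and SD of each strain; the shares lie between 26.2% and 28.8% in H3K27ac libraries and between 11.9% and 14.5% in inputs.

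The highest mean levels were at *Pcbp1* and *Ranbp2*. *Pcbp1*, encoding a poly(C)-binding RNA-binding protein, had 1078, 819 and 981 normalized counts in A/J, 946, 801 and 1198 in BALB/cJ, and 878, 703 and 1056 in C57BL/6J. *Ranbp2*, encoding a nucleoporin of the cytoplasmic face of the nuclear pore, had 970, 825 and 1139 in A/J, 822, 691 and 1176 in BALB/cJ, and 653, 719 and 1021 in C57BL/6J. The strains overlapped at both, and no strain difference at them passed the test. *Rbm7*, of the nuclear exosome targeting complex, *Rela*, encoding the p65 subunit of NF-κB, and *Ubb*, encoding polyubiquitin, followed, and none of them passed the test in any comparison. Above 500 normalized counts in the mean, the promoter with the least relative variation was *Rhbdd3*, with 730, 575 and 651 in A/J, 641, 600 and 706 in BALB/cJ, and 602, 591 and 684 in C57BL/6J. Of the 853 promoters above 400 normalized counts, 2 were called in any strain comparison. *Btbd9*, encoding a BTB domain protein, was 1 of them, with 1536, 1744 and 1687 in A/J against 436, 407 and 508 in BALB/cJ and 513, 335 and 477 in C57BL/6J. The A/J libraries lay above all others there, by 1.87 ± 0.24 over BALB/cJ (log2 ± SE, adjusted p = 1.1e-05) and 1.90 ± 0.24 over C57BL/6J (adjusted p = 4.0e-06). Its input was also higher in A/J, at 31.1 CPM (counts scaled to the input's total) against 10.7 in BALB/cJ and 12.9 in C57BL/6J.

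Promoters had a lower median spread between libraries of 1 strain, and a smaller share of them was called between strains, than other windows. Their median coefficient of variation within a strain was 19.3%, compared with 22.9% for intronic and 24.3% for intergenic windows. Between 100 and 400 normalized counts these values were closer, at 17%, 18.4% and 19%. A promoter was called different where edgeR gave an adjusted p (Benjamini–Hochberg, over all windows tested) under 0.05 and a change beyond 2-fold. By that rule 589 of 11467 promoters (5.14%), at 507 genes, differed in at least 1 strain comparison, compared with 12.3% of all windows tested. Level was one property along which the share fell: 14.1% of 1926 promoters with means of 16 to 50 normalized counts were called, 8.1% of 2309 between 50 and 100, and 0.234% of 853 above 400. Within 1 band of level, from 100 to 400 normalized counts, the share called in any comparison was 2.01% of 6379 promoters, compared with 4.84% of 8485 intronic and 7.54% of 4472 intergenic windows. The differences between classes are descriptions and were not tested. Because whole cell populations were used, fewer cells with an acetylated promoter and less acetylation per cell cannot be told apart.

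**Figure D2:**
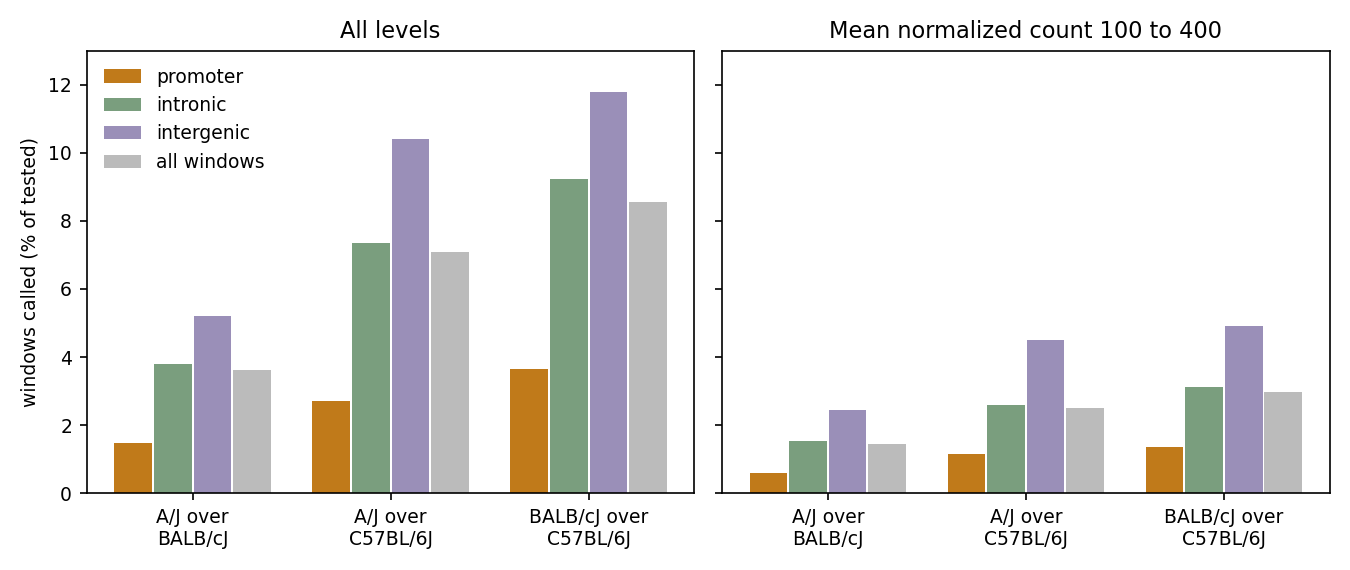
Share of tested windows called different (%) in each of 3 strain comparisons for promoter, intronic, intergenic and all windows, at all levels (left) and at mean normalized counts of 100 to 400 (right). Bars for promoters are the lowest in each group, for example 1.48% against 3.63% of all windows in A/J over BALB/cJ.

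Between A/J and BALB/cJ, 170 promoters at 148 genes were called (1.48%), against a background of 3.63% of the 60387 windows tested. Of these, 65 were higher in A/J (0.567%, background 1.40%) and 105 were lower (0.916%, background 2.23%). Most promoters were close to equal, with 88.5% within 0.5 on the log2 scale and a median absolute difference of 0.19, compared with 78% and 0.25 over all windows. An unadjusted p under 0.05 was reached by 931 promoters. Leaving out BALB/cJ replicate 3 lowered the count to 106.

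In this ranking a promoter needed a mean of at least 100 normalized counts in the higher strain and no overlap between the compared libraries. Under that rule *Il21r*, encoding the receptor for the T-cell cytokine IL-21, had the largest excess in A/J. Its window (chr7:125603027-125604027, mm10) held 110, 101 and 114 normalized counts in A/J against 10.1, 11.4 and 6.57 in BALB/cJ, with 52, 37.3 and 61.1 in C57BL/6J. The 3 strains did not overlap, and A/J exceeded BALB/cJ by 3.61 ± 0.33 (log2 ± SE, adjusted p = 5.9e-08). *Fblim1*, encoding a LIM protein that binds filamin at sites of adhesion, had 569, 350 and 503 in A/J against 103, 41.2 and 96.4 in BALB/cJ, a difference of 2.51 ± 0.29 (adjusted p = 3.1e-06), and C57BL/6J overlapped A/J with 412, 317 and 574. *Spry1*, encoding an inhibitor of receptor tyrosine kinase signalling, had 148, 107 and 137 in A/J against 29.5, 13.7 and 35.8 in BALB/cJ (2.22 ± 0.30, adjusted p = 1.6e-05), with 14.7, 9.31 and 15.1 in C57BL/6J, below A/J by 3.26 ± 0.33 (adjusted p = 1.0e-07 for A/J over C57BL/6J).

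By the same rule (at least 100 normalized counts in the higher strain, no overlap), *Nub1* had the largest difference among promoters lower in A/J. Its product lowers the level of the ubiquitin-like protein NEDD8. The window upstream of its start site (chr5:24684381-24685381, mm10) held 35.3, 53.4 and 45.3 normalized counts in A/J against 179, 236 and 259 in BALB/cJ, a difference of -2.38 ± 0.26 (adjusted p = 8.4e-07). C57BL/6J overlapped BALB/cJ there with 239, 228 and 339, and that difference did not pass the test (BALB/cJ over C57BL/6J -0.28 ± 0.23, adjusted p = 0.541). *Prkag2*, encoding a regulatory subunit of AMP-activated protein kinase, had 35.3, 23.7 and 20.1 in A/J against 105, 128 and 98.6 in BALB/cJ (-2.02 ± 0.30, adjusted p = 6.9e-05). *Bhlhe41*, encoding a basic helix-loop-helix repressor, had 157, 71.2 and 140 in A/J against 452, 343 and 590 in BALB/cJ (-1.86 ± 0.30, adjusted p = 2.8e-04). At *Sorbs3*, encoding the adhesion adaptor vinexin, and *Parp16*, encoding an ADP-ribosyltransferase of the endoplasmic reticulum, A/J was lower by a log2 difference of -2.03 ± 0.32 (adjusted p = 1.5e-04) and -1.96 ± 0.26 (adjusted p = 1.1e-05). At all 5 of these genes the A/J and BALB/cJ libraries did not overlap, which the rule for naming them required.

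Between A/J and C57BL/6J, 310 promoters at 271 genes were called (2.7%), against a background of 7.09%. In A/J 144 were higher (1.26%, background 3.16%) and 166 were lower (1.45%, background 3.93%). Within 0.5 on the log2 scale lay 84.3% of promoters, compared with 72.2% of all windows. The count was 203 without C57BL/6J replicate 3.

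Between BALB/cJ and C57BL/6J, 419 promoters at 358 genes were called (3.65%), against a background of 8.56%. In BALB/cJ 248 were higher (2.16%, background 4.46%) and 171 were lower (1.49%, background 4.10%). Within 0.5 on the log2 scale lay 83.2% of promoters, compared with 69.3% of all windows. The count was 267 without C57BL/6J replicate 3. These comparisons and that of A/J with BALB/cJ share libraries, so their counts are given side by side only. Set against both other strains at once, 20 promoters were higher and 29 lower in A/J, 41 higher and 39 lower in BALB/cJ, and 75 higher and 106 lower in C57BL/6J.

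Several promoters separated C57BL/6J from both other strains. *Cacna1a*, encoding the pore-forming subunit of the P/Q-type calcium channel of neurons, had 192, 237 and 189 normalized counts in A/J and 221, 172 and 134 in BALB/cJ, against 2.66, 4.66 and 0.63 in C57BL/6J (chr8:84414835-84415835, mm10). A/J exceeded C57BL/6J by 6.68 ± 0.43 (log2 ± SE, adjusted p = 1.1e-10) and BALB/cJ exceeded it by 6.47 ± 0.43 (adjusted p = 2.6e-10). Input was present in all strains there, at 8.63 CPM in A/J, 6.18 CPM in BALB/cJ and 10.3 CPM in C57BL/6J. *Inpp4b*, encoding a phosphoinositide phosphatase, had 130, 148 and 113 in A/J and 97.1, 91.6 and 104 in BALB/cJ, against 14.7, 27.9 and 12 in C57BL/6J. Its excess was 2.98 ± 0.31 in A/J (adjusted p = 1.4e-07) and 2.59 ± 0.31 in BALB/cJ (adjusted p = 1.3e-06). *Ltb*, encoding lymphotoxin beta, had 156, 119 and 111 in A/J and 53.2, 22.9 and 46 in BALB/cJ, against 7.99, 16.3 and 8.82 in C57BL/6J. No 2 strains overlapped at *Ltb*, with 1.59 ± 0.29 for A/J over BALB/cJ (adjusted p = 9.1e-04) and 3.67 ± 0.36 for A/J over C57BL/6J (adjusted p = 5.6e-08), while BALB/cJ exceeded C57BL/6J by 2.09 ± 0.38 (adjusted p = 3.6e-04).

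Others were high in C57BL/6J. *Isoc2b*, encoding an isochorismatase domain protein, had 55.2, 83.1 and 75 normalized counts in A/J and 51.5, 50.4 and 78.1 in BALB/cJ, against 424, 377 and 530 in C57BL/6J. The difference was -2.68 ± 0.25 for A/J (adjusted p = 2.6e-08) and -2.86 ± 0.25 for BALB/cJ (adjusted p = 9.2e-09). *Mefv*, encoding pyrin, the sensor of an inflammasome, had 0.736, 14.8 and 2.59 in A/J and 29.5, 59.5 and 46.7 in BALB/cJ, against 128, 149 and 125 in C57BL/6J. Its A/J libraries were the lowest, with a log2 difference of -5.29 ± 0.49 against C57BL/6J (adjusted p = 2.7e-08) and -3.68 ± 0.52 against BALB/cJ (adjusted p = 4.0e-05). *Akt2*, encoding a kinase of insulin signalling, had a promoter window with 13.3, 8.9 and 12.9 in A/J and 10.1, 22.9 and 5.84 in BALB/cJ, against 121, 189 and 171 in C57BL/6J (-3.67 ± 0.35, adjusted p = 4.0e-08, and -3.88 ± 0.36, adjusted p = 2.6e-08).

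In 3 such cases the input was also uneven between strains. *Trim12a*, of the TRIM5 family of restriction factors, had no tag in any A/J or BALB/cJ library and 98.6, 60.5 and 143 normalized counts in C57BL/6J (chr7:104315378-104316378, mm10). At a floor of 3 tags over the group it was at least 109-fold lower in A/J and at least 100-fold lower in BALB/cJ. The A/J and BALB/cJ inputs held 0 tags there and the C57BL/6J input 2. *Zfp951*, encoding a zinc finger protein, was lower by a log2 difference of -5.19 ± 0.38 in A/J (adjusted p = 6.2e-10) and -5.40 ± 0.39 in BALB/cJ (adjusted p = 5.3e-10) than in C57BL/6J, with inputs of 0.424 CPM in A/J, 2 CPM in BALB/cJ and 5.14 CPM in C57BL/6J. *H2-T10*, a non-classical MHC class I gene of a family of close copies, was lower by a log2 difference of -3.53 ± 0.41 in A/J (adjusted p = 6.6e-06) and -3.71 ± 0.41 in BALB/cJ (adjusted p = 3.7e-06), with inputs of 0.283 CPM in A/J, 2 CPM in BALB/cJ and 17.1 CPM in C57BL/6J. At differences beyond 16-fold, 3 of 13 called promoters in A/J over C57BL/6J and 7 of 18 in BALB/cJ over C57BL/6J had no input tag in the lower strain. In A/J over BALB/cJ this held for 4 of 5. The part of mapping in these differences was not tested.

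Promoters that separated BALB/cJ from both other strains included those of a lysosomal and a scavenger protein. *Cd63*, encoding a tetraspanin of late endosomes and lysosomes, had a downstream window with 82.7, 71 and 91.3 normalized counts in BALB/cJ against 9.33, 0 and 6.93 in C57BL/6J, a difference of 3.68 ± 0.45 (adjusted p = 1.7e-06). The A/J libraries, at 21.3, 5.93 and 11, were below BALB/cJ by a log2 difference of -2.51 ± 0.39 (adjusted p = 1.2e-04). *Colec12*, encoding a scavenger receptor with a collectin domain, had 134, 96.1 and 236 in BALB/cJ against 25.3, 11.6 and 17.6 in C57BL/6J (3.07 ± 0.34, adjusted p = 4.2e-07), and A/J, with 50.8, 35.6 and 45.9, was below BALB/cJ by a log2 difference of -1.80 ± 0.30 (adjusted p = 3.6e-04). *Sorbs3* and *Bhlhe41*, both described above as lower in A/J than in BALB/cJ, also exceeded C57BL/6J in BALB/cJ, by 3.22 ± 0.37 (adjusted p = 5.7e-07) and 3.01 ± 0.32 (adjusted p = 4.8e-07). *Slc15a2*, encoding a peptide transporter, was called against C57BL/6J but not against A/J. It spread widely, with 137, 41.2 and 263 in BALB/cJ against 14.7, 9.31 and 17.6 in C57BL/6J. That difference of 3.35 ± 0.79 (adjusted p = 0.035) was no longer called without any 1 of 5 libraries, with adjusted p up to 0.144. When 1 library was left out, A/J over BALB/cJ ran from -1.54 to -0.28 on the log2 scale and A/J over C57BL/6J from 1.81 to 2.67. DESeq2 called the latter and edgeR without the block did not.

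**Figure D3:**
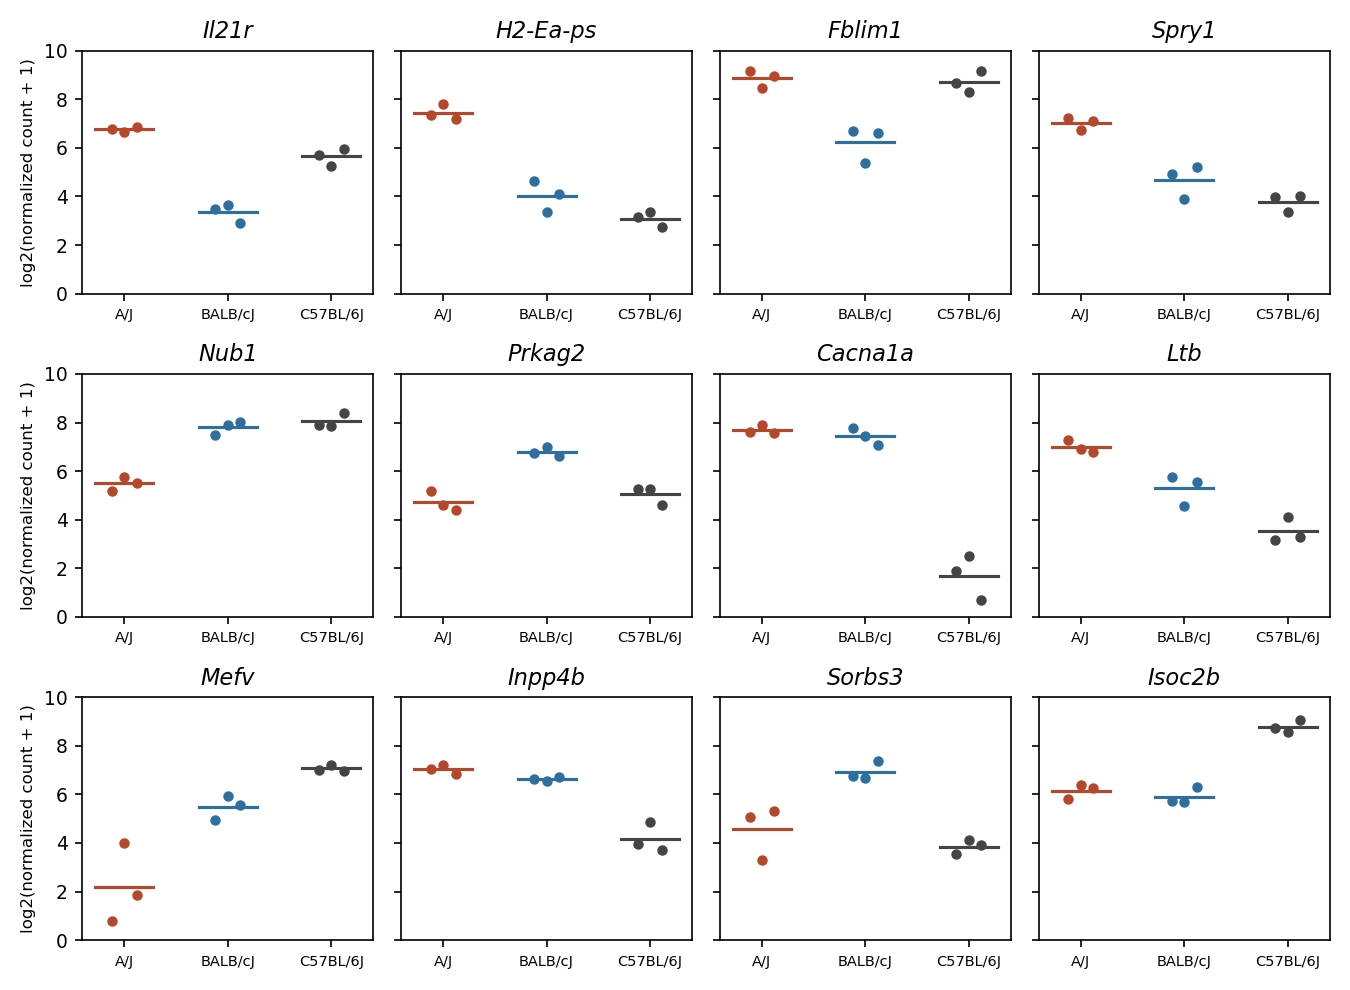
H3K27ac at 12 promoters in each strain library (A/J left, BALB/cJ middle, C57BL/6J right), as log2 of the normalized count plus 1; each point is 1 library and the line is the mean of 3. At *Il21r* the A/J libraries lie highest and the BALB/cJ libraries lowest, and at *Cacna1a* the 3 C57BL/6J libraries lie far below the rest.

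Promoters of genes for the basic machinery of the cell had 0 or 1 call per list in each strain comparison. In the groups below at most 2.04% of the windows were called in a comparison, compared with 1.48%, 2.7% and 3.65% of all tested promoters in A/J over BALB/cJ, A/J over C57BL/6J and BALB/cJ over C57BL/6J. Of all promoters with means of 100 to 400 normalized counts, 0.596%, 1.14% and 1.35% were called. The median levels of the groups ran from 97.8 to 258 normalized counts, so their shares were near those of promoters of such levels. Among 91 tested windows of cytosolic ribosomal protein genes, at a median level of 192 normalized counts, 0 were called in A/J over BALB/cJ, 1 in A/J over C57BL/6J and 1 in BALB/cJ over C57BL/6J. Their median log2 differences were -0.01, 0.04 and 0.03, compared with 0.01, -0.01 and -0.01 over all windows. The constitutive proteasome, the protease that degrades ubiquitin-tagged proteins, had 39 windows and no call in any comparison, with medians of 0.05, 0.05 and -0.02. Splicing factors (49 windows), respiratory chain subunits (73), translation initiation factors (50) and mitochondrial ribosomal proteins (65) had at most 1 call in any comparison. Where edgeR called 0 of a group, an unadjusted p under 0.05 was reached by 5 of the ribosomal windows in A/J over BALB/cJ and by 2, 0 and 2 of the proteasome windows in the 3 comparisons, and DESeq2 also called 0. *Uqcrb*, encoding a subunit of the respiratory cytochrome bc1 complex, was lower by a log2 difference of -1.18 in A/J (adjusted p = 8.7e-04) and by -1.13 in BALB/cJ (adjusted p = 0.0012) than in C57BL/6J, and neither call held without C57BL/6J replicate 3.

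Of the pathway lists, MHC class II presentation had the largest share of calls. MHC class II molecules present peptides of engulfed proteins to helper T cells. Of 14 tested windows of this group, 50% were called in at least 1 comparison, compared with 12.3% of all windows and 5.14% of promoters. There were 4 higher in A/J than in BALB/cJ (28.6%, background 3.63%), 0 called between A/J and C57BL/6J (background 7.09%), and 7 lower in BALB/cJ than in C57BL/6J (50%, background 8.56% in both directions). Between A/J and C57BL/6J 4 windows had an unadjusted p under 0.05 in edgeR and DESeq2 called 0. The median differences were 0.95, -0.11 and -1.04. *Cd74*, encoding the invariant chain that guides class II molecules to endosomes, had 339, 311 and 281 normalized counts in A/J against 92.9, 64.1 and 70.8 in BALB/cJ, a difference of 2.01 ± 0.25 (adjusted p = 5.9e-06). The C57BL/6J libraries lay between them with 193, 135 and 264, and BALB/cJ was lower than C57BL/6J by a log2 difference of -1.38 (adjusted p = 3.4e-04). *H2-Eb1*, encoding a class II beta chain, had 433, 332 and 345 in A/J against 157, 87 and 81.8 in BALB/cJ (1.75 ± 0.27, adjusted p = 1.4e-04). At *H2-Aa*, encoding a class II alpha chain, A/J exceeded BALB/cJ by 1.24 (adjusted p = 0.00496) and BALB/cJ was lower than C57BL/6J by a log2 difference of -1.34 (adjusted p = 9.3e-04). At *H2-Ab1* the differences of 0.97 for A/J over BALB/cJ and -0.86 for BALB/cJ over C57BL/6J were below the 2-fold limit. The H2 region differs in haplotype between strains, and the part of mapping there was not tested.

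*H2-Ea-ps* lies in the same region. Its symbol names a pseudogene, while the deposited table typed it protein-coding. Whether the gene is intact in each strain was not examined. It had 165, 220 and 144 normalized counts in A/J against 23.6, 9.16 and 16.1 in BALB/cJ and 7.99, 9.31 and 5.67 in C57BL/6J. The A/J libraries were higher by 3.29 ± 0.31 than BALB/cJ (adjusted p = 8.7e-08) and by 4.59 ± 0.36 than C57BL/6J (adjusted p = 1.9e-09). Of 25 windows of MHC class I presentation, 0 were called in A/J over BALB/cJ, 1 in A/J over C57BL/6J (4%) and 2 in BALB/cJ over C57BL/6J (8%), against backgrounds of 3.63%, 7.09% and 8.56%. Their median differences were 0.23, -0.04 and -0.36, and the difference from the class II group was not tested. In A/J over BALB/cJ 5 of them had an unadjusted p under 0.05 in edgeR, and DESeq2 called 0. *H2-K1*, encoding a classical class I heavy chain, was called at -1.93 ± 0.39 for BALB/cJ over C57BL/6J (adjusted p = 0.0011).

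Among 95 windows of interferon-induced genes, 11.6% were called in at least 1 comparison, close to the 12.3% of all windows and above the 5.14% of promoters. In A/J over BALB/cJ 1 was higher and 2 lower, in A/J over C57BL/6J 1 higher and 5 lower, and in BALB/cJ over C57BL/6J 2 higher and 7 lower, with median differences of 0.08, -0.14 and -0.24. The shares called were 3.16%, 6.32% and 9.47%, against backgrounds of 3.63%, 7.09% and 8.56%. *Ifi213*, encoding a DNA-binding protein of the PYHIN family, had 4.42, 2.97 and 2.59 normalized counts in A/J and 5.07, 2.29 and 0 in BALB/cJ, against 56, 37.3 and 42.8 in C57BL/6J. The differences were -3.70 ± 0.55 in A/J (adjusted p = 3.0e-05) and -4.20 ± 0.58 in BALB/cJ (adjusted p = 1.2e-05). *Ifi203* of the same family was lower by a log2 difference of -1.98 ± 0.28 in A/J than in C57BL/6J (adjusted p = 1.6e-05). *Ifit3b*, of the family that binds viral RNA, had 174, 92 and 164 in A/J and 149, 124 and 160 in BALB/cJ, against 352, 275 and 449 in C57BL/6J. It was lower by a log2 difference of -1.29 in A/J (adjusted p = 6.2e-04) and -1.31 in BALB/cJ (adjusted p = 4.6e-04).

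Chemokines and their receptors, which direct the movement of leukocytes, had more promoters higher than lower against C57BL/6J. Of 28 windows, 0 were called in A/J over BALB/cJ (2 at an unadjusted p under 0.05 in edgeR, 0 called by DESeq2), 4 were higher and 1 lower in A/J over C57BL/6J, and 5 were higher and 1 lower in BALB/cJ over C57BL/6J. The shares against C57BL/6J were 17.9% in A/J and 21.4% in BALB/cJ, where 7.09% and 8.56% of all windows were called. *Cxcl1*, a neutrophil attractant, had 127, 47.5 and 82.8 normalized counts in A/J and 138, 45.8 and 128 in BALB/cJ, against 22.7, 27.9 and 13.2 in C57BL/6J. It was higher by 2.21 ± 0.41 in A/J (adjusted p = 7.9e-04) and 2.47 ± 0.41 in BALB/cJ (adjusted p = 2.0e-04). *Cx3cr1*, the fractalkine receptor of monocytes, was higher by 1.83 ± 0.35 in A/J (adjusted p = 8.4e-04) and 2.05 ± 0.35 in BALB/cJ (adjusted p = 1.8e-04). *Ccr3*, an eotaxin receptor, was higher by 1.78 ± 0.32 (adjusted p = 3.3e-04) and 1.97 ± 0.31 (adjusted p = 8.3e-05). *Ccl27a* was the exception, at -3.76 ± 0.46 in A/J (adjusted p = 1.7e-06) and -4.36 ± 0.49 in BALB/cJ (adjusted p = 5.0e-07). Of 5 tested windows of monocyte and neutrophil markers, 1 was higher and 1 lower in BALB/cJ than in C57BL/6J. *S100a8*, encoding a calcium-binding protein of neutrophils and monocytes, was the higher at 1.51 ± 0.44 (adjusted p = 0.0271, and up to 0.247 without 1 library, with the call lost without any 1 of 4 libraries), and *Plac8* the lower at -3.13 ± 0.37 (adjusted p = 1.1e-06).

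Toll-like receptor and NF-κB genes had 63 tested windows, with 3 higher in A/J than in BALB/cJ, 1 higher and 1 lower in A/J than in C57BL/6J, and 3 lower in BALB/cJ than in C57BL/6J. These shares of 4.76%, 3.17% and 4.76% compare with 3.63%, 7.09% and 8.56% of all windows and with 1.48%, 2.7% and 3.65% of promoters. The called windows belonged to 2 genes in each comparison. *Tlr5*, the receptor for flagellin, had 63.3, 71.2 and 69.2 normalized counts in A/J against 21.1, 18.3 and 24.1 in BALB/cJ and 14.7, 4.66 and 19.5 in C57BL/6J. The A/J libraries were higher by 1.63 ± 0.33 (adjusted p = 0.00313) and 2.18 ± 0.35 (adjusted p = 1.0e-04). *Tnfaip3*, encoding the NF-κB inhibitor A20, had promoter windows upstream of and at its start site. At the upstream window A/J exceeded BALB/cJ by 1.59 ± 0.31 (adjusted p = 0.00172), while at the start site the difference was -0.05 ± 0.25 (adjusted p = 0.965).

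Genes of Kupffer cell identity had 62 tested windows, of which 0 were called in A/J over BALB/cJ (4 at an unadjusted p under 0.05 in edgeR, 0 called by DESeq2), 1 lower in A/J over C57BL/6J and 1 lower in BALB/cJ over C57BL/6J. The shares of 0%, 1.61% and 1.61% compare with 3.63%, 7.09% and 8.56% of all windows and 1.48%, 2.7% and 3.65% of promoters. Their median differences were -0.06, -0.16 and -0.11. *Kcna2*, encoding a voltage-gated potassium channel, had 42, 83.1 and 62.7 normalized counts in A/J against 191, 172 and 215 in C57BL/6J (-1.71 ± 0.28, adjusted p = 1.2e-04). Core macrophage genes had 73 windows, with 2 higher and 2 lower in A/J over BALB/cJ, 3 lower in A/J over C57BL/6J, and 1 higher and 2 lower in BALB/cJ over C57BL/6J, shares of 5.48%, 4.11% and 4.11%. *Cd300e*, encoding an activating receptor of myeloid cells, had 149, 136 and 135 in A/J against 38.8, 57.2 and 30.7 in BALB/cJ (1.81 ± 0.28, adjusted p = 1.1e-04). Of 39 windows of LXR target and sterol synthesis genes, 1, 4 and 2 were called in the 3 comparisons (2.56%, 10.3% and 5.13%). *Apoc1*, encoding an apolipoprotein, was lower by a log2 difference of -1.48 ± 0.27 in A/J than in C57BL/6J (adjusted p = 5.0e-04). Immediate early genes, induced within minutes of a stimulus and thus sensitive to the digestion of the liver, had 36 windows and 0 calls in any comparison by edgeR or DESeq2, with 3, 1 and 1 at an unadjusted p under 0.05 in edgeR.

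Promoters of zinc finger genes with a Zfp symbol, many of which are repressors of transposable elements in clusters of close copies, formed the list with the most windows, with 331 tested windows. In A/J over BALB/cJ 0 were higher and 5 lower, in A/J over C57BL/6J 5 higher and 11 lower, and in BALB/cJ over C57BL/6J 8 higher and 6 lower, with medians of 0.02, -0.02 and -0.02. The shares called were 1.51%, 4.83% and 4.23%, compared with 1.48%, 2.7% and 3.65% of promoters and 3.63%, 7.09% and 8.56% of all windows. On chromosome 13, *Zfp459* had 55.2, 35.6 and 58.2 normalized counts in A/J and 59.1, 75.5 and 68.6 in BALB/cJ, against 7.99, 9.31 and 5.04 in C57BL/6J, while *Zfp493* ran the opposite way with 72.1, 65.3 and 82.1 in A/J and 97.1, 82.4 and 108 in BALB/cJ, against 289, 193 and 397 in C57BL/6J. The BALB/cJ strain differed from C57BL/6J by 3.29 ± 0.38 (adjusted p = 6.3e-07) at *Zfp459* and -1.61 ± 0.25 (adjusted p = 5.0e-05) at *Zfp493*. In that megabase of chromosome 13, 6 of the 23 genes with a tested promoter were called in some comparison, *Gm10037* and 5 with a Zfp symbol.

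Some called promoters shared a block with called promoters of other genes. Of 1685 megabase blocks with a tested promoter, 382 held a called one, and 21 blocks with 3 or more called genes held 78 of the 507 genes. Over all blocks 507 of 8703 tested genes were called. Blocks differ in their number of tested genes, and whether called genes gathered beyond that was not tested. The block of the MHC class II genes on chromosome 17 had 7 of 35 genes called, and a block on chromosome 1 with *Ifi203*, *Ifi208*, *Ifi211*, *Ifi213* and *Mndal* had 5 of 9. Called promoters also stood near called windows elsewhere. In A/J over BALB/cJ, 44.1% of 170 called promoters had a called intronic or intergenic window with a difference in the same direction within 50 kb, compared with 7.45% of all tested promoters. The shares were 52.9% of 310 against 13.4% in A/J over C57BL/6J and 49.2% of 419 against 17.2% in BALB/cJ over C57BL/6J. Genes and windows of 1 block share their haplotype and are not independent.

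Most genes with several promoters had none of them called, and others had calls at some of them. Among 386 genes with tested promoter windows more than 1000 bases apart, BALB/cJ over C57BL/6J had 347 with none called, 30 with some called, 9 with all called in the same direction and 0 called in opposite directions. *Akt2* was 1 of the 30. A further window of it, which overlaps the one described above, was also low in BALB/cJ, at -3.59 ± 0.43 (adjusted p = 1.4e-06). The promoter window 14908 bases from that one had 147, 174 and 161 normalized counts in BALB/cJ against 245, 186 and 254 in C57BL/6J, a difference of -0.53 ± 0.22 (adjusted p = 0.137). *Clcn7*, encoding a lysosomal chloride transporter, had 1 window with 20.3, 13.7 and 14.6 in BALB/cJ against 87.9, 46.6 and 101 in C57BL/6J (-2.28 ± 0.34, adjusted p = 3.3e-05), and another 3193 bases away with a difference of -0.03 ± 0.27 (adjusted p = 0.97). *Lrmp*, encoding an endoplasmic reticulum protein of lymphoid cells, had a window lower by a log2 difference of -1.73 ± 0.31 in BALB/cJ than in C57BL/6J (adjusted p = 2.8e-04) and another 5457 bases away at -0.21 ± 0.23 (adjusted p = 0.686). *Rtn4* had windows 26442 bases apart in opposite directions, at 0.95 (adjusted p = 0.0524) and -1.36 (adjusted p = 0.00586) in BALB/cJ over C57BL/6J. The call at the latter was lost without C57BL/6J replicate 3.

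The share of promoters called differed with their CpG content. Of the 13303 promoters 10648 matched a RefSeq promoter. Calls in any comparison were made at 14.4% of 780 tested promoters with an observed over expected ratio under 0.35, at 6.69% of 1644 between 0.35 and 0.65 and at 3.53% of 6891 above 0.65. Their median levels were 91.1, 105 and 153 normalized counts. Computed instead over the whole window, an alternative chosen after seeing the data that covers every promoter, the shares were 13.4% of 1433, 6.2% of 3015 and 2.99% of 7019. Within 100 to 400 normalized counts they were 4.98% of 622, 3.02% of 1455 and 1.23% of 4302. The direction also shifted a little with CpG content in comparisons with C57BL/6J: by the window ratio the median difference of BALB/cJ over C57BL/6J was -0.17 in the class under 0.35 and 0.07 in the class above 0.65. By library, the median deviation of CpG-rich minus that of CpG-poor promoters was 0.12, 0.08 and -0.02 in A/J, 0.09, 0.01 and 0.14 in BALB/cJ, and -0.02, -0.18 and -0.24 in C57BL/6J. The C57BL/6J library was the lowest of the 3 within each replicate number, although replicate 3 of A/J and replicate 1 of C57BL/6J had the same value. The ratio of tags in CpG-rich to those in CpG-poor promoters was 7.75 to 8.6 in A/J and 7.91 to 8.5 in BALB/cJ, against 6.45 to 7.53 in C57BL/6J, where no C57BL/6J library overlapped the rest. The part of base composition in the libraries was not tested.

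**Figure D4:**
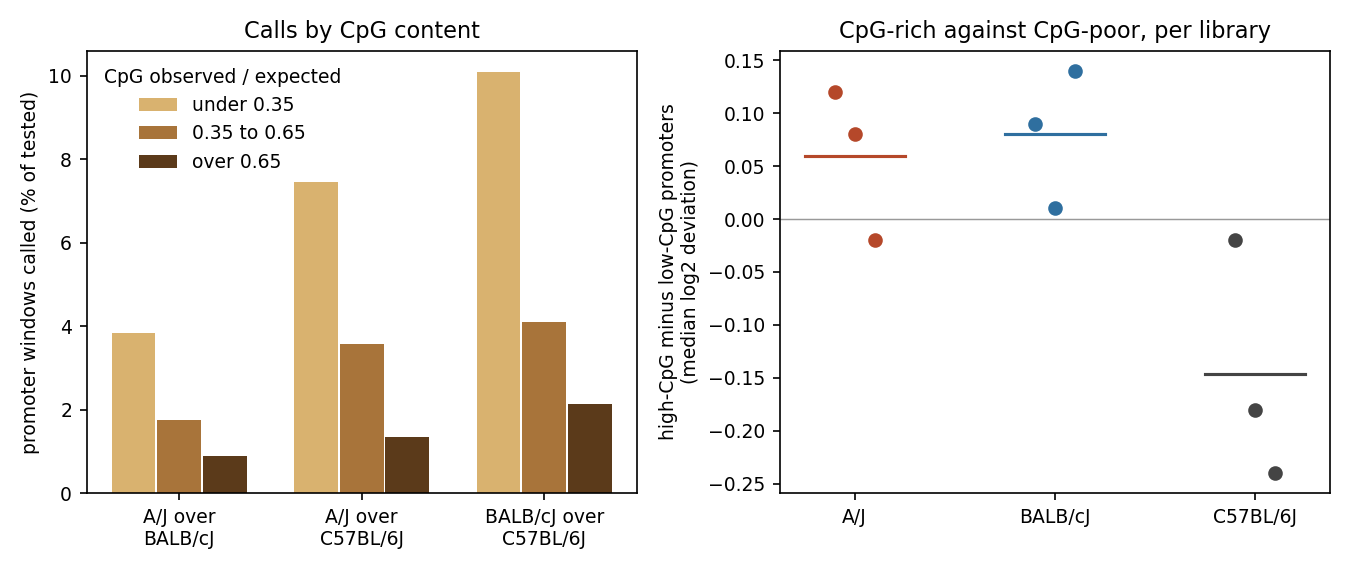
Left, share of tested promoter windows called (%) in each strain comparison for 3 classes of window CpG observed over expected ratio; the share falls with CpG content in every comparison, from 10.1% to 2.14% in BALB/cJ over C57BL/6J. Right, median log2 deviation of CpG-rich minus CpG-poor promoters in each library, with the mean of each strain as a line; C57BL/6J libraries lie at -0.02, -0.18 and -0.24.

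The share also differed between promoters with different short motifs. These were searched on both strands over the 300 bases, except the TATA box, which was searched on the sense strand at its usual place before the start, and none of the motifs contains another. The GC box stood in 68.2% of the matched promoters, compared with 35.9% of all RefSeq promoters, the ETS core in 18.5% compared with 8.91%, and the E-box palindrome TCACGTGA of lysosomal genes in 2.06% compared with 0.983%. The AP-1 site TGANTCA was scarcer, at 4.86% compared with 7.79%. Of all RefSeq promoters, 1.93% held the TATA box TATAAA, 3.45% the interferon-stimulated response element and 2.77% the YY1 site AAGATGGC, compared with 1.28%, 3.51% and 4.52% of the matched promoters. The PU.1 site AGAGGAAG stood in 4.68% of the matched promoters and 4.57% of all. Calls in any comparison were made at 10.2% of 108 tested promoters with a TATA box, 9.11% of 428 with an AP-1 site and 7.35% of 340 with the interferon-stimulated response element. They were made at 2.55% of 1883 with the ETS core, 3.87% of 439 with the PU.1 site, 1.72% of 465 with the YY1 site and 1.42% of 211 with TCACGTGA, compared with 4.99% of all matched promoters. The CCAAT box (5.12% of 3689), the GC box (4.18% of 6442) and the cAMP response element TGACGTCA (4.58% of 349) were close to that share. Among the 340 with the interferon-stimulated response element, 0 were higher and 6 lower in A/J over BALB/cJ (1.76%). In A/J over C57BL/6J 1 was higher and 14 lower (4.41%), and in BALB/cJ over C57BL/6J 5 and 11 (4.71%). Of the 9315 tested matched promoters 1.4%, 2.64% and 3.48% were called, with 46 higher and 84 lower, 116 and 130, and 196 and 128. With the AP-1 site 3 were higher and 10 lower in A/J over BALB/cJ (3.04%) and 10 and 8 in A/J over C57BL/6J (4.21%). In BALB/cJ over C57BL/6J 24 were higher and 7 lower (7.24%). The directions were not tested. A match describes the letters of the reference only.

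It differed with position relative to the start site as well. Calls were made at 8.08% of 1671 tested windows centred more than 500 bases upstream, 5.04% of 2699 centred 100 to 500 bases upstream, 4.63% of 6311 within 100 bases and 3.31% of 786 further downstream. *Bhlhe41*, *Nub1* and the upstream window of *Tnfaip3* belonged to the first kind.

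In CB6F1/J both parental genomes are in 1 nucleus and meet the same environment, so tags that carry a parental variant separate the alleles. Such tags were few. Among promoters 10379 (78%) had no allelic tag, as had 78% of other windows, and 1062 promoters (7.98%) at 982 genes had enough to be tested, with a median of 209 allelic tags. The BALB/cJ allele took 48.8%, 49% and 48.5% of the allelic tags of promoters in the 3 libraries (95% Wilson intervals 48.4 to 49.1, 48.8 to 49.3 and 48.2 to 48.7), compared with 48.9%, 48.5% and 48.5% in other windows. These intervals cover counting error only.

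Of the 1062 promoters, 45 at 43 genes differed between the BALB/cJ and C57BL/6J alleles (4.24%), against a background of 7.05% of 4087 windows. The BALB/cJ allele was higher at 14 (1.32%, background 2.94%) and lower at 31 (2.92%, background 4.11%). The count was 21 without replicate 2 and 12 without replicate 3. With the animal as a block, which pairs the alleles of 1 nucleus and leaves 2 residual degrees of freedom, edgeR called 0 promoters at a lowest adjusted p of 0.0513, while 154 had an unadjusted p under 0.05. All 45 kept their direction and an unadjusted p under 0.05 in that fit, and DESeq2 without the block called 51.

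*Gsr*, encoding glutathione reductase, differed in the same direction between alleles and between strains. The BALB/cJ allele had 36.6, 12.4 and 32.4 normalized counts against 241, 157 and 227 for the C57BL/6J allele, a difference of -2.99 ± 0.32 (adjusted p = 7.2e-06). The strains had 76, 121 and 129 in BALB/cJ against 384, 354 and 472 in C57BL/6J (-1.91 ± 0.24, adjusted p = 3.1e-06). *Fblim1* had 6.1, 3.11 and 4.05 on the BALB/cJ allele against 47, 60.8 and 58.6 on the C57BL/6J allele (-3.70 ± 0.48, adjusted p = 3.6e-05), with strains at -2.38 ± 0.29 (adjusted p = 2.4e-06). The alleles did not overlap at either gene, which the rule for naming them required. *H2-Ea-ps* was higher on the BALB/cJ allele, with 61, 98 and 40.5 against 0, 10.3 and 0 (3.94 ± 0.67, adjusted p = 6.0e-04), and its strain difference of 1.30 (adjusted p = 0.049) was no longer called without any 1 of 6 libraries. DESeq2 called neither difference of *H2-Ea-ps*. *Pxmp4*, encoding a peroxisomal membrane protein, had 238, 199 and 132 on the BALB/cJ allele against 58.8, 49.8 and 62.5 (1.73 ± 0.25, adjusted p = 1.1e-04), with strains at 1.19 (adjusted p = 0.00133). Its input was also higher in BALB/cJ, at 29.6 CPM against 6.85 CPM in C57BL/6J.

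*Lpin1*, encoding a phosphatidate phosphatase of lipid synthesis, and *Nod2*, encoding the sensor of bacterial muramyl dipeptide, were higher on the BALB/cJ allele. *Lpin1* had 39.7, 57.5 and 60.7 normalized counts on the BALB/cJ allele against 20.6, 11 and 16.6 on the C57BL/6J allele (1.76 ± 0.40, adjusted p = 0.00675), and *Nod2* had 47.3, 80.9 and 103 against 44.1, 22 and 19.5 (adjusted p = 0.013). Neither allelic call held without replicate 2 or without replicate 3, with adjusted p up to 0.241 at *Lpin1* and 0.518 at *Nod2*. Between strains BALB/cJ exceeded C57BL/6J by 1.71 ± 0.27 at *Lpin1* (adjusted p = 7.1e-05) and 1.24 ± 0.23 at *Nod2* (adjusted p = 4.5e-04). *Nod2* had 153, 185 and 176 normalized counts in BALB/cJ against 76, 79.2 and 64.2 in C57BL/6J. *Rsl1*, encoding a KRAB zinc finger repressor, was lower on the BALB/cJ allele by -3.00 ± 0.46 (adjusted p = 2.0e-04, and 0.0561 without replicate 3), while its strains differed by -0.31 ± 0.24 (adjusted p = 0.496).

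Set side by side, 13 promoters were called between strains and between alleles, all in the same direction, 36 between strains alone and 32 between alleles alone. Of the 36, 33 had the allelic difference in the same direction, with median sizes of 0.77 between alleles and 1.25 between strains. Of the 45 called between alleles, 38 had the strains in the same direction, and 21 had a strain difference under 0.5 on the log2 scale. Over all 1062 promoters the correlation of the allelic with the strain difference was r = 0.442, given as a description since promoters of 1 library set are not independent.

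The difference of the differences was tested with an interaction term, the strain difference minus the allelic difference. It was called at 21 of 1062 promoters (1.98%), against a background of 2.59% of 4086 windows, with 17 higher (1.6%, background 1.64%) and 4 lower (0.377%, background 0.954%). With the replicate block the count was 32, and it was 14, 13 and 3 without replicates 1, 2 and 3. *Mapkapk2*, encoding a kinase activated by p38, had 340, 247 and 197 normalized counts in BALB/cJ against 301, 144 and 211 in C57BL/6J, and 16.8, 14 and 12.1 on the BALB/cJ allele against 101, 92.3 and 91.8 on the C57BL/6J allele. The strains overlapped and the alleles did not (-2.74 ± 0.32, adjusted p = 1.4e-05). *Wdfy1*, encoding an endosomal adaptor of Toll-like receptor signalling, was the reverse, with 55.7, 45.8 and 48.9 in BALB/cJ against 321, 184 and 336 in C57BL/6J (-2.48 ± 0.27, adjusted p = 2.7e-07), and alleles at 22.9, 23.3 and 26.3 against 26.4, 38.8 and 43 (-0.59 ± 0.39, adjusted p = 0.542). *Cd74*, one of the class II promoters low in BALB/cJ, had 19.8, 66.1 and 33.4 on the BALB/cJ allele against 26.4, 60 and 41 on the C57BL/6J allele (-0.08 ± 0.42), but its interaction did not pass the test (-1.20 ± 0.46, adjusted p = 0.199). *Rbm7*, among the highest promoters, had 303, 348 and 399 against 345, 338 and 428 (-0.08 ± 0.16). The part of mapping to the parental genomes in the allelic differences was not tested.

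**Figure D5:**
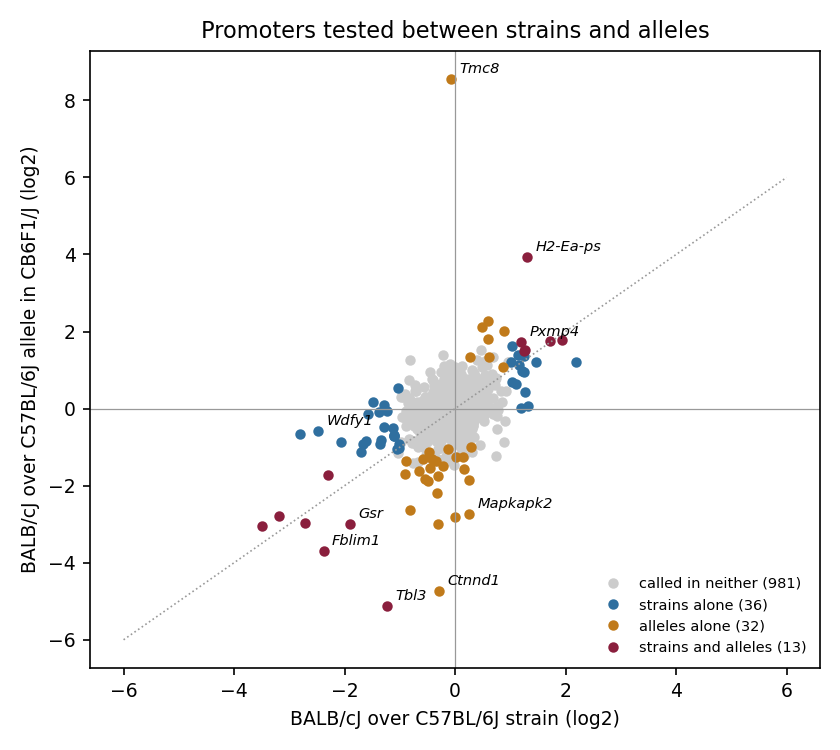
The log2 difference of the BALB/cJ over the C57BL/6J allele in CB6F1/J (vertical) against that of the BALB/cJ over the C57BL/6J strain (horizontal) for 1062 promoters; the dotted line marks equality and colours mark calls. The 13 promoters called in both lie in the quadrants of equal direction, and *Tmc8*, *Mapkapk2* and *Ctnnd1* lie near the vertical axis.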

How the data were processed

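H3K27ac ChIP–seq libraries of sorted Kupffer cells (3 per strain and 3 of CB6F1/J) were analysed from the tag tables that the authors deposited. Per the study's methods, the authors aligned reads with Bowtie2 to the genome of each strain, shifted them to mm10 coordinates with MMARGE and used HOMER to count tags in 1000 bp windows, each centred on a merged ATAC–seq peak. Versions of these tools are not given in the sources used here. The deposited values are raw counts, and expected counts in steps of 0.5 for replicate 2 of each strain, the inputs and the CB6F1/J columns, which were rounded before fitting. For CB6F1/J the deposited counts of perfectly aligned tags that span a variant of 1 parent were given for regions of 200 bp, which were assigned to the window that holds their midpoint. CB6F1/J inputs were not used.

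Strains were compared with edgeR 4.0.16 in R 4.3.3 (TMM factors, robust quasi-likelihood test, 3 strains in 1 fit) over all windows with a mean above 16 normalized counts, and alleles and the interaction likewise. A window was called at an adjusted p (Benjamini–Hochberg over all windows tested) under 0.05 and an absolute log2 difference above 1. Normalized counts were obtained by scaling each library from its effective size to the mean of the effective sizes, and the SE of a log2 difference is its size over the square root of the F statistic. Tags in windows ranged over 2291425 to 12980348 per library, which limits differences at weak promoters most. The fits were tested on simulated data. Other tools were DESeq2 1.42.0, limma 3.58.1, Python 3.11.15 and scipy 1.17.1.

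Replicate numbers were checked for pairing: the 9 pairs of libraries with the same number and different strains had correlations of their deviations from strain means of 0.273 to 0.507 over tested promoters, and 9 of 9 libraries correlated best with their own number, so a fit with the replicate number as a block was made beside the one reported. The pairing comes from the data, and the labels do not state its source. For alleles the block is the animal.

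The named promoters followed fixed rules: the largest called differences in each strain comparison and between alleles, with a minimum mean in the higher group of 100 normalized counts (50 between alleles), the highest and steadiest promoters, the strongest calls of each of 26 gene lists, genes discussed in the study, genes with unequal promoter windows and the strongest interactions, 125 windows in all, of which some are not reported here. The promoters and lists were chosen with earlier results of these data known. Alternatives were other normalizations, DESeq2, no filter on low counts, 1 window per gene, windows open without LPS, the block and leaving out each library.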

Additional observations from a re-analysis of the deposited data

Results flagged for a closer look

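At 9 named promoters the difference between BALB/cJ and C57BL/6J strains and that between their alleles in CB6F1/J were unequal in edgeR's interaction test. The values are the strain difference minus the allelic difference on the log2 scale. *Mapkapk2*, with similar strains and a low BALB/cJ allele, had 3.09 ± 0.42 (adjusted p = 1.5e-05). *Tmc8* had 382, 320 and 372 normalized counts in BALB/cJ against 344, 340 and 443 in C57BL/6J, but 39.7, 46.7 and 54.7 on the BALB/cJ allele against 0, 0 and 0 on the C57BL/6J allele, so its fitted value of -10.07 depends on the prior count. Both of these were called whichever replicate was left out.

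*Ctnnd1*, encoding p120 catenin, had 4.68 ± 0.74 (adjusted p = 1.3e-04), with 4.58, 0 and 0 on the BALB/cJ allele against 38.2, 22 and 37.1 on the C57BL/6J allele. *Tbl3*, a ribosome biogenesis gene, had 4.09 ± 0.69 (adjusted p = 3.0e-04), and *Cast*, encoding the calpain inhibitor calpastatin, had 2.90 ± 0.54 (adjusted p = 0.0011). Without replicate 3 these 3 were no longer called, at adjusted p = 0.0639, 0.0602 and 0.133. *Rsl1*, with similar strains and a low BALB/cJ allele, had 2.80 ± 0.52 (adjusted p = 9.6e-04, and 0.151 without replicate 3). *Wdfy1*, with unequal strains and closer alleles, had -1.80 ± 0.42 (adjusted p = 0.0106), and was no longer called without replicate 1 or 3, with adjusted p up to 0.344. *H2-Eb1* had -1.54 ± 0.43 (adjusted p = 0.0464) and *Cd5l*, encoding a protein secreted by macrophages, had -1.49 ± 0.39 (adjusted p = 0.031), and neither was called when any 1 replicate was left out (adjusted p up to 0.535 and 0.309). CB6F1/J tags perfectly aligned to the BALB/cJ and C57BL/6J genomes numbered 584 and 824 at *Mapkapk2*, 458 and 318 at *Tmc8*, and 134 and 212 at *Ctnnd1*. They numbered 28.5 and 160 at *Tbl3*, 52.5 and 154 at *Cast*, and 23 and 184 at *Rsl1*. At *Wdfy1*, *H2-Eb1* and *Cd5l* they numbered 113 and 152, 126 and 118, and 261 and 192. The part of mapping in these allelic differences was not tested.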

How the results depend on the processing

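The counts of called promoters in A/J over BALB/cJ, A/J over C57BL/6J and BALB/cJ over C57BL/6J were 170, 310 and 419. They were 245, 393 and 493 with the replicate block, 168, 303 and 399 with DESeq2, 196, 355 and 481 without the filter on low counts, and 117, 214 and 280 with 1 window per gene. When 1 library was left out they ranged over 106 to 188, 203 to 375 and 267 to 462. The 45 allelic calls became 73 without the low count filter, 0 with the replicate block, which leaves 2 residual degrees of freedom, and 12 to 52 when 1 library was left out. The 21 interaction calls became 32 with the block and 3 to 14 when 1 replicate was left out. For the promoter share of tags the permutation p was 0.167 within replicate number, 0.289 without overlapping windows, and 0.0143 to 0.189 when 1 library was left out. Among named promoters the block ended the call of *Cd300e* in BALB/cJ over C57BL/6J (-0.99) and all 13 allelic calls, and added 4, 5 and 2 strain calls in the 3 comparisons (*Cd40* in the last, at -1.04) and 3 interaction calls. The cause of these changes was not tested. No named difference changed its direction where it was called. Depth limits the weakest promoters, since 1836 were below the level for testing, and few allelic tags limit CB6F1/J to 1062 promoters.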

Other observations

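Of 32 tested promoter windows of genes that the study discusses, 7, 5 and 8 were called in A/J over BALB/cJ, A/J over C57BL/6J and BALB/cJ over C57BL/6J. These are 21.9%, 15.6% and 25%, compared with 3.63%, 7.09% and 8.56% of all windows and 1.48%, 2.7% and 3.65% of promoters. The genes were taken from a study that compared these strains, so the shares are no independent evidence. *Arg2*, encoding the mitochondrial arginase, had 235, 185 and 175 normalized counts in BALB/cJ against 70.6, 74.5 and 87.5 in C57BL/6J, a difference of 1.34 (adjusted p = 6.0e-04). *Cxcr4*, encoding the receptor for CXCL12, had 87, 87 and 83.2 in BALB/cJ against 24, 21 and 28.3 in C57BL/6J (1.76 ± 0.30, adjusted p = 2.1e-04). The promoter of *Stat3* had 546, 486 and 592 in A/J, 488, 334 and 612 in BALB/cJ, and 412, 426 and 644 in C57BL/6J, with strains overlapping. The promoter of *Maf*, encoding a macrophage transcription factor, differed between A/J and BALB/cJ by 0.21 ± 0.33 (adjusted p = 0.868). In BALB/cJ over C57BL/6J its difference was -0.18 ± 0.33 (adjusted p = 0.825).

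The *Il21r* promoter, lowest in BALB/cJ, had 0, 0.778 and 0 normalized counts on the BALB/cJ allele of CB6F1/J against 8.82, 15.4 and 8.79 on the C57BL/6J allele, too few for a test.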
